A study of Homo sapiens with 12 samples.

Results

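LNCaP cells given an siRNA against ERRγ were compared with LNCaP cells given a control siRNA, both in the presence of the synthetic androgen R1881. LNCaP is an established human prostate cancer cell line in which androgen drives a large set of genes. The comparison takes in 6 of the 12 expression bead arrays of the series, chosen by the titles of the samples: 3 arrays of ERRγ siRNA with R1881 and 3 arrays of control siRNA with R1881. The other 6 arrays hold 3 of ERRγ siRNA with vehicle and 3 of control siRNA with vehicle, and serve here as the same siRNA comparison without androgen. All 12 samples were grown in medium with 2% steroid-deprived serum and transfected. They were reseeded 48 h later and then kept for 72 h in 10 nM R1881 or in its ethanol vehicle. The control cells were thus transfected too, and every group is of 1 cell line. Neither the sequence nor the number of the siRNAs is given in the sources used here. The labels call the samples triplicates and do not say whether these were separate cultures, so each p-value reflects the spread among these samples alone, and that spread may be technical.

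ERRγ, encoded by *ESRRG*, is an orphan nuclear receptor of the estrogen-related receptor family, together with ERRα (*ESRRA*) and ERRβ (*ESRRB*). These receptors bind DNA without a known natural hormone and, with the coactivators PGC-1α and PGC-1β, switch on genes of the TCA cycle, the respiratory chain and fatty acid oxidation. The series title describes ERRγ as repressed by androgen in prostate cancer, and the R1881 arrays ask what its siRNA does in cells that are then given androgen.

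Probes detected numbered 18698 to 20536 of 47323 on an array, and 17123 genes were tested. All 18 luminal epithelial markers listed were among them, while the basal markers *KRT5*, *KRT14* and *TP63*, the neuroendocrine markers *CHGA* and *SYP*, and the immune marker *PTPRC* were not detected on enough arrays to be tested. The summed linear signal of the luminal markers was 21850 to 22360 on the ERRγ siRNA arrays and 20860 to 24110 on the control siRNA arrays, so the first range lay inside the second. R1881 and vehicle arrays were parted by the first principal component, with 73.2% of the variance. The second component held 7.18% and did not separate the siRNAs in R1881: the ERRγ siRNA arrays lay at 3.91, -2.78 and 2.71, and the control siRNA arrays at 13.99, -16.22 and 0.30. Replicates 1 and 2 of the control siRNA in R1881 were therefore the highest and the lowest of the 6 R1881 arrays on that axis, with all 3 ERRγ siRNA arrays between them. The third component held 2.79% and placed the ERRγ siRNA arrays at 11.30, 7.52 and 5.19, against -4.31, -10.03 and -9.99 for the control siRNA arrays. Arrays correlated at 0.9944 to 0.9948 within the ERRγ siRNA group, at 0.99 to 0.993 within the control siRNA group and at 0.9919 to 0.994 between the groups. The median SD of a gene was 0.11 among the ERRγ siRNA arrays and 0.142 among the control siRNA arrays on the log2 scale. In bulk RNA of this kind, fewer cells and less RNA per cell cannot be told apart.

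**Figure D1:**
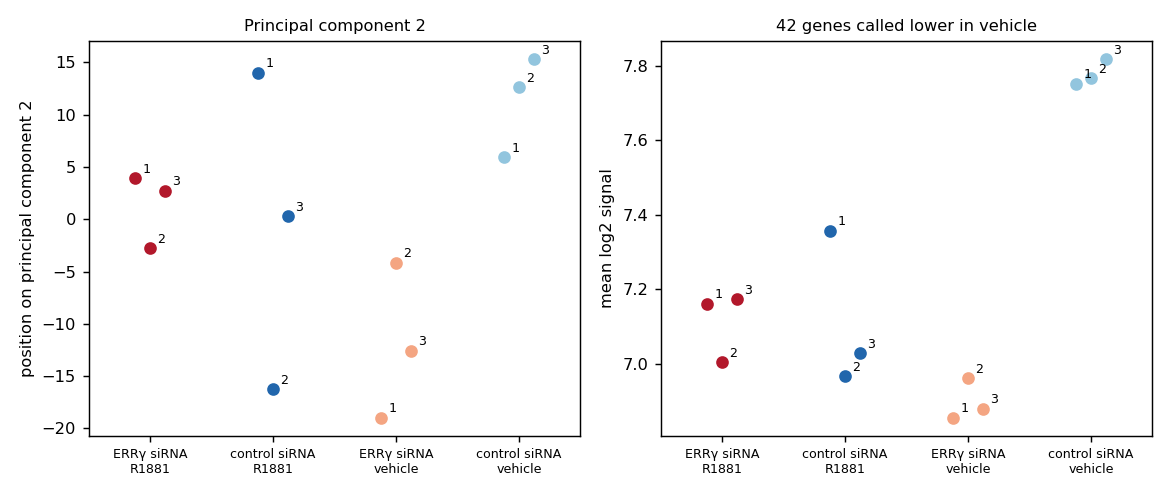
Left: position of each of the 12 arrays on the second principal component, which held 7.18% of the variance. Right: mean normalized log2 signal, per array, of the 42 genes called lower with the ERRγ siRNA in vehicle. Points are single arrays numbered by replicate, and in both plots the 3 ERRγ siRNA arrays in R1881 lie between replicates 1 and 2 of the control siRNA in R1881.

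The target of the siRNA was below detection. None of the 3 *ESRRG* probes was detected on any of the 12 arrays. Their normalized log2 signals on the R1881 arrays were 4.19 to 4.29 with the ERRγ siRNA and 4.21 to 4.34 with the control siRNA, over the 3 probes. The groups overlapped on the first and the third probe, and on the second every ERRγ siRNA array lay below every control siRNA array. The mean differences, ERRγ siRNA minus control siRNA, were -0.02, -0.05 and -0.01 on the log2 scale (exact two-sided permutation p = 0.9, 0.1 and 1, where 0.1 is the smallest that 6 arrays in 2 groups of 3 allow). Depletion of the transcript was therefore not detectable at this signal, in either direction. *PPARGC1A*, which encodes PGC-1α, was detected on 0 of 12 arrays. *PPARGC1B*, which encodes PGC-1β, and *ESRRB* were each detected on 1 of 12. *ESRRA* was detected on all 12, with log2 signals of 7.37, 7.36 and 7.503 with the ERRγ siRNA and 7.45, 7.43 and 7.54 with the control siRNA. The groups overlapped, and the log2 change was -0.06 ± 0.09 SE (adjusted p = 0.948, limma).

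Across the transcriptome, no gene passed the test for a change with the ERRγ siRNA in R1881. Of 17123 genes, 0 passed an adjusted p under 0.05 (0%; limma's moderated test with Benjamini-Hochberg adjustment over all genes). Without adjustment 1048 genes (6.12%) had p under 0.05, of which 502 (2.93%) were higher and 546 (3.19%) lower with the ERRγ siRNA. The values of 1 group all lay above those of the other in 1855 genes (10.8%). Of these, 879 (5.13%) were higher and 976 (5.7%) lower with the ERRγ siRNA. The count of called genes was also 0 under each of the 23 alternative settings run, which included another background correction, cyclic loess, the authors' normalized table, no filter on dim probes and each array left out in turn. The lowest adjusted p reached under any of them was 0.073, in the authors' table.

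The intervals of the changes hold for the normalized log2 scale used here, on which changes of dim probes are drawn toward 0, so they do not bound the change of a dim transcript. Half-widths of the 95% intervals on the log2 scale had a median of 0.253. For 15913 genes (92.9%) that interval lay wholly within a change of 1.5-fold in either direction, and for 17098 genes (99.9%) within 2-fold. The remaining 25 genes had an interval that reached past 2-fold. These intervals are per gene and are not adjusted for the number of genes. By point estimate, 8 genes were at least 1.5-fold higher and 6 at least 1.5-fold lower with the ERRγ siRNA, against 210 genes past 1.5-fold in either direction in vehicle. The SD of the log2 changes over genes was 0.144 in R1881 and 0.20 in vehicle. The plot of changes against signal shows that most of the wider changes lay among dim genes.

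**Figure D2:**
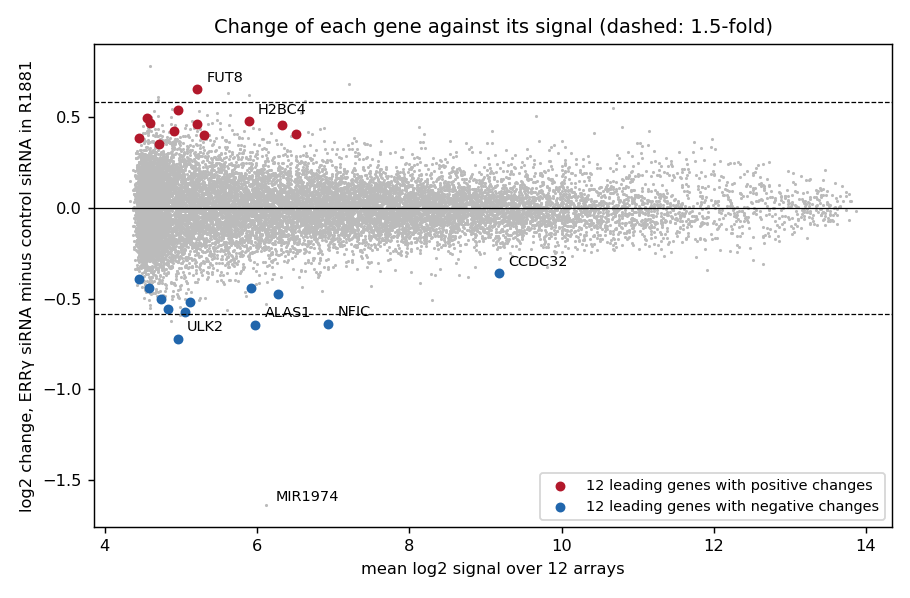
Log2 change of each of 17123 genes (ERRγ siRNA minus control siRNA, both in R1881) against its mean log2 signal over 12 arrays. Dashed lines mark 1.5-fold, coloured points are the 24 leading genes, and *MIR1974* is the 1 gene past 2-fold by point estimate.

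The genes past 1.5-fold were chosen after their values were seen. *MIR1974*, whose name on the array is that of a former microRNA entry, had the widest difference, with a log2 change of -1.64 ± 0.84 SE (adjusted p = 0.844, limma). Its log2 signals were 4.95, 5.21 and 5.03 on the ERRγ siRNA arrays and 8.57, 4.83 and 6.69 on the control siRNA arrays. The groups overlapped, and the control siRNA arrays alone spanned 3.74 log2 units. Replicates 1 and 3 of the control siRNA were the high ones. *TNFSF11*, the gene of the osteoclast-forming ligand RANKL, had log2 signals of 4.68, 4.75 and 5.88 with the ERRγ siRNA and 4.27, 4.41 and 4.28 with the control siRNA. It was detected on 3 of 3 ERRγ siRNA arrays and on 0 of 3 control siRNA arrays. With the control arrays only bounded by the background, its mean was at least 1.42-fold higher with the ERRγ siRNA (adjusted p = 0.699, limma). That bound leaves out the spread among arrays, and 1 of the 3 ERRγ siRNA arrays lay far above the others. *SLC4A4*, a sodium bicarbonate cotransporter, had a log2 change of 0.63 and *SOAT2*, an enzyme that esterifies cholesterol, of 0.60. *EXOSC8*, a subunit of the RNA exosome, was at 0.59, while *ATAD2B* was at -0.62 and *CREB3*, a transcription factor held in the membrane of the endoplasmic reticulum, at -0.59. The adjusted p of these 5 genes lay between 0.67 and 0.799, and none passed the test.

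The 24 leading genes were the 12 in each direction with the lowest unadjusted p among genes with a symbol whose groups did not overlap. Since the comparison itself chose them, their values are a description. The sizes of their changes depended on the processing. They lay between 0.355 and 0.72 as reported here, where 16 was added to the background-corrected signals, and between 0.15 and 0.50 with 50 added. In the authors' table, whose normalization is not given, they lay between 0.025 and 0.30, and the cause of that was not tested. *FUT8* had a log2 change of 0.66 here and 0.07 in the authors' table, and *ULK2* of -0.72 and -0.10. None passed the adjusted test, with adjusted p between 0.313 and 0.642 for the 12 positive and between 0.194 and 0.609 for the 12 negative changes. Detection on all 6 R1881 arrays was seen for 12 of the 24, and 7 were not detected on any array of their dimmer group. The values given are of the brightest probe of each gene. With the mean of all kept probes instead, 5 of the 24 moved to smaller changes, and the smallest of the 24 was 0.08.

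Among the positive changes, *FUT8* encodes the enzyme that adds core fucose to N-glycans. Its log2 signals were 4.99, 5.29 and 5.04 with the ERRγ siRNA and 4.23, 4.52 and 4.59 with the control siRNA. The gene was above background on 3 of 3 ERRγ siRNA arrays and on 0 of 3 control siRNA arrays. With the dim group only bounded by the background, *FUT8* was at least 1.42-fold higher with the ERRγ siRNA by its values, at a fitted log2 change of 0.66 ± 0.11 SE (adjusted p = 0.313). In vehicle, where it was detected with both siRNAs, its log2 change was -0.01. *H2BC4*, a core histone H2B gene with near-identical copies elsewhere in the genome, had log2 signals of 6.75, 6.66 and 6.78 with the ERRγ siRNA against 6.36, 6.16 and 6.24 with the control siRNA. Its change was 0.48 ± 0.09 SE (adjusted p = 0.609), and 0.01 in vehicle.

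*ARG1*, the arginase of the urea cycle, had log2 signals of 5.66, 5.63 and 5.35 with the ERRγ siRNA and 4.795, 5.26 and 4.96 with the control siRNA. *NEK1*, a kinase of the NIMA family, had 6.00, 6.06 and 6.04 against 5.35, 5.68 and 5.70. *MOB2*, a regulator of NDR kinases, had 6.56, 6.68 and 6.79 with the ERRγ siRNA against 6.15, 6.37 and 6.28 with the control siRNA. In each of these 3 genes every ERRγ siRNA array lay above every control siRNA array, by log2 changes of 0.54, 0.46 and 0.41. *ARG1* and *NEK1* also had positive changes in vehicle, of 0.34 and 0.38 (adjusted p = 0.229 and 0.132), where *ARG1* was detected on 1 of 3 control siRNA arrays. *ARG1* lay close to the background, as did the remaining positive genes. Among them were *LBP*, the lipopolysaccharide-binding protein (0.50), the sorting nexin *SNX24* (0.47), the phospholipase A2 gene *PLA2G2D* (0.40) and the collagen gene *COL26A1* (0.35). *LBP* and *COL26A1* were detected on 1 and 2 of the 3 control siRNA arrays. *NPW*, the precursor of neuropeptide W, *ADAM32* of the ADAM family and *CCDC198* were detected on 0 of 3 control siRNA arrays. Their means were at least 1.19-fold, 1.23-fold and 1.03-fold higher with the ERRγ siRNA, bounds that leave out the spread among arrays (adjusted p = 0.609, 0.609 and 0.642, limma).

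**Figure D3:**
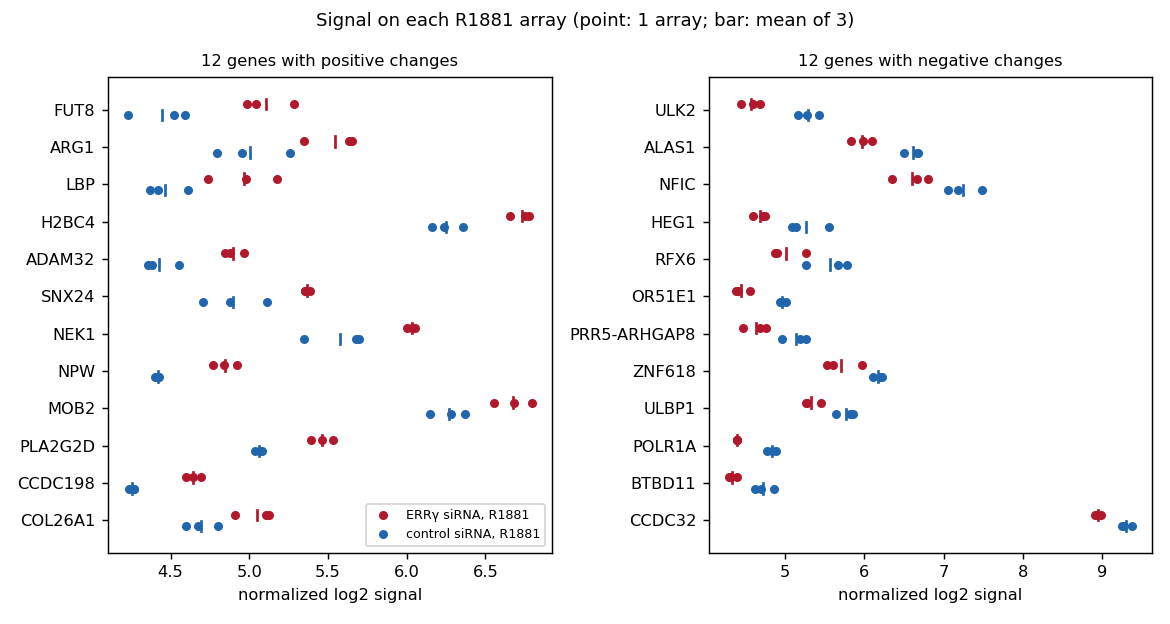
Normalized log2 signal of the 24 leading genes on each of the 6 R1881 arrays, with 12 positive changes on the left and 12 negative on the right. Points are arrays, bars are means of 3, and none of the genes passed the adjusted test although, by the rule that chose them, their groups do not overlap.

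Among the negative changes, *ULK2*, a kinase that starts autophagy, had the lowest adjusted p of all genes, 0.194. Its log2 signals were 4.59, 4.68 and 4.45 with the ERRγ siRNA and 5.16, 5.28 and 5.43 with the control siRNA, a change of -0.72 ± 0.11 SE. It was detected on 1 of 3 ERRγ siRNA arrays and on 3 of 3 control siRNA arrays. In vehicle the change was -0.29 (adjusted p = 0.227). *ALAS1* encodes the first enzyme of heme synthesis, a pathway that begins in the mitochondrion. Its log2 signals were 5.83, 5.98 and 6.10 with the ERRγ siRNA and 6.67, 6.50 and 6.67 with the control siRNA, a change of -0.64 ± 0.12 SE (adjusted p = 0.609). These values are of the brighter of its 2 kept probes. Over the 23 alternative settings the change lay between -0.71 and -0.18. In vehicle *ALAS1* had a change of 0.17, so the sign differed, and the difference between R1881 and vehicle was -0.82 ± 0.17 SE (adjusted p = 0.21).

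*NFIC*, a transcription factor of the nuclear factor I family, had log2 signals of 6.80, 6.35 and 6.67 with the ERRγ siRNA against 7.49, 7.05 and 7.19 with the control siRNA, a change of -0.64 ± 0.15 SE. These values are of the brightest of its 3 kept probes, and over the 23 alternative settings the change lay between -0.73 and -0.23. Replicate 1 was the highest array in both groups. *CCDC32* was the brightest of the 24, at 8.93, 8.99 and 8.91 with the ERRγ siRNA against 9.25, 9.38 and 9.28 with the control siRNA. Its change was -0.36 ± 0.08 SE. *RFX6*, a transcription factor of pancreatic islet development, was at -0.56 and the zinc finger gene *ZNF618* at -0.48. *HEG1*, a transmembrane protein of cell junctions, was at -0.57, *ULBP1*, a stress ligand read by natural killer cells, at -0.44 and the read-through gene *PRR5-ARHGAP8* at -0.50. *HEG1* and *PRR5-ARHGAP8* were detected on 2 of 3 ERRγ siRNA arrays each. The receptor gene *OR51E1*, *POLR1A*, the largest subunit of RNA polymerase I, and *BTBD11* were detected on 0 of 3 ERRγ siRNA arrays. Their means were at least 1.29-fold, 1.17-fold and 1.09-fold lower there than with the control siRNA, again without the spread among arrays (adjusted p = 0.609 each, limma).

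The changes in vehicle were not used to rank the 24 genes, although the vehicle arrays share in the estimate of the spread and in the filter on dim probes. In vehicle, 16 of the 24 had a change of the same sign as in R1881 (66.7%), against 8470 of all 17123 genes tested (49.5%). Of the 12 positive genes 7 were also positive in vehicle, and of the 12 negative genes 9 were also negative. None of the 24 was called in vehicle, and 4 had an unadjusted p under 0.05 there with the same sign. With the opposite sign, *PLA2G2D* (-0.50) and *NPW* (-0.31) also had such a p (0.00018 and 0.0055, limma). Over all genes 15.5% had an unadjusted p under 0.05 in vehicle, in either direction.

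Among genes on which ERRs and PGC-1 are known to act, none passed the test. Of 78 listed metabolic targets 69 were tested, 0 were called, and 1 was higher and 1 lower at an unadjusted p under 0.05, or 2.9% against 6.12% of all genes. Their median log2 change was -0.004, with 32 of 69 positive, beside 4.5e-05 over all genes. The 95% interval lay within 1.5-fold for 66 of the 69. *PDK2*, a kinase that shuts off pyruvate dehydrogenase, had log2 signals of 5.08, 5.08 and 5.07 with the ERRγ siRNA and 5.49, 5.42 and 5.30 with the control siRNA. Its groups did not overlap, with a change of -0.33 ± 0.10 SE (adjusted p = 0.699). *DLST*, a subunit of the 2-oxoglutarate dehydrogenase complex, had 7.53, 7.55 and 7.42 with the ERRγ siRNA against 7.17, 7.30 and 7.37 with the control siRNA, a change of 0.22 ± 0.10 SE (adjusted p = 0.807). The ERR family and its coregulators had 9 of 16 members tested, all with intervals within 1.5-fold. Among them *NCOR1*, a corepressor, was at 0.19 and *NCOA1*, a coactivator, at -0.13.

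The TCA cycle and pyruvate oxidation list had 34 members tested, a median of -0.002 and the same *PDK2* and *DLST* as its members with p under 0.05. Fatty acid oxidation had 35 members tested, 0 of them called, and a median of 0.001. Among 21 genes of mitochondrial DNA maintenance and dynamics the median was -0.004. *SSBP1*, which binds single-stranded mitochondrial DNA, had 10.93, 11 and 10.93 with the ERRγ siRNA against 10.74, 10.72 and 10.70 with the control siRNA, a change of 0.23 ± 0.08 SE (adjusted p = 0.729). *NRF1*, a regulator of nuclear genes for mitochondrial proteins, was at 0.26 (adjusted p = 0.818) and was detected on 1 of 3 control siRNA arrays.

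Among the metabolic lists, complex I and ATP synthase of the respiratory chain had the highest medians, and these moved with 1 control array. For complex I, 25 of 35 tested members had a positive change, against 50% of all genes, the median was 0.11 and 0 were called. At an unadjusted p under 0.05, 3 were higher and 0 lower (8.57%, against 6.12% of all genes, with 2.93% higher). For ATP synthase, 13 of 18 were positive, the median was 0.15, and 2 were higher and 0 lower at that p (11.1%, against the same 6.12%). Complexes II to IV had a median of 0.04 with 0 of 25 members at that p. Averaged over its members, complex I deviated from the mean of the 6 R1881 arrays by 0.05, 0.02 and 0.06 with the ERRγ siRNA and by 0.12, -0.23 and -0.02 with the control siRNA. The ERRγ siRNA arrays lay between the control arrays, and replicate 2 of the control siRNA was the low one. For ATP synthase the deviations were 0.09, 0.05 and 0.02 with the ERRγ siRNA and 0.06, -0.16 and -0.06 with the control siRNA, with the same array lowest. Without that array the medians were -0.02 for complex I and 0.04 for ATP synthase. Over the 23 alternative settings they also rose, to as much as 0.18 in each of these lists. In vehicle the medians were -0.17 and -0.02.

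Single subunits varied over the same arrays. *NDUFS5* of complex I had 12.32, 12.23 and 12.13 with the ERRγ siRNA and 12.09, 11.54 and 11.91 with the control siRNA, a change of 0.38 ± 0.13 SE (adjusted p = 0.729). *NDUFA12* had 10.90, 10.91 and 10.92 against 10.84, 10.35 and 10.66, a change of 0.29 ± 0.11 SE. The third complex I member, named after its values were seen, was *NDUFA1*, at 0.36 with overlapping groups. *ATP5MK* of the ATP synthase had 7.08, 7.08 and 7.28 with the ERRγ siRNA and 7.02, 6.60 and 6.94 with the control siRNA, a change of 0.29 ± 0.12 SE. *ATP5PF* had 12.04, 11.98 and 12.02 against 11.87, 11.68 and 11.89, a change of 0.20 ± 0.09 SE. In *NDUFS5*, *NDUFA12*, *ATP5MK* and *ATP5PF* replicate 2 of the control siRNA was the lowest of the 6 arrays. The subunits with the lowest p among the negative changes went the other way: *NDUFB5* had 10.80, 11.09 and 11.05 with the ERRγ siRNA against 11.04, 11.36 and 11.16 with the control siRNA, a change of -0.21. *ATP5PB* had 11.76, 11.77 and 11.73 against 11.62, 12.17 and 11.98, a change of -0.17. In these, and in *NDUFV2* (-0.17) and *ATP5F1A* (-0.13), replicate 2 of the control siRNA was the highest of the 6 arrays. None of the subunits named here passed the adjusted test.

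**Figure D4:**
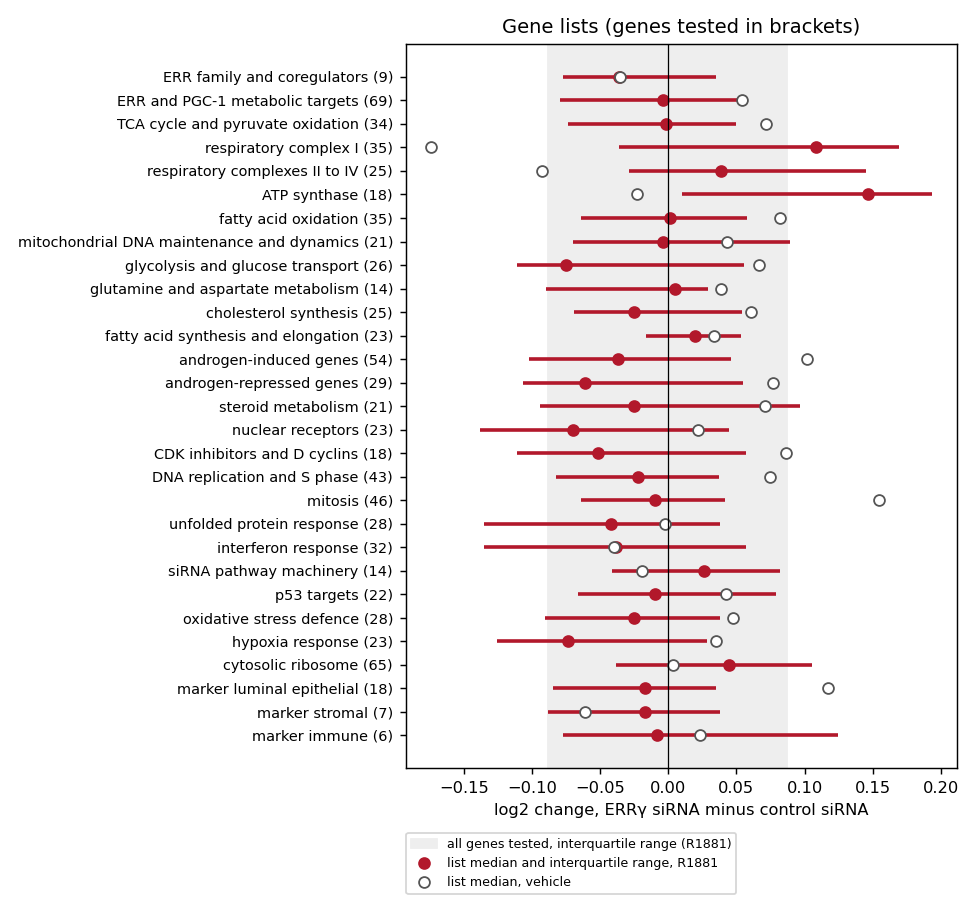
Median log2 change of gene lists with at least 6 tested members (number tested in brackets), ERRγ siRNA minus control siRNA. Filled points are medians in R1881 with the interquartile range of the members as bars, open points are medians in vehicle, and the grey band is the interquartile range of all 17123 genes in R1881. Complex I and ATP synthase have the highest medians in R1881, 0.11 and 0.15.

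No androgen-regulated gene on the lists passed the test. Of 54 tested androgen-induced genes 0 were called, 2 were higher and 1 lower at an unadjusted p under 0.05 (5.56% against 6.12% of all genes), and the median log2 change was -0.04. All 54 had an interval within 1.5-fold. *KLK3*, the gene of prostate-specific antigen, had log2 signals of 10.98, 10.93 and 11 with the ERRγ siRNA and 10.89, 11.24 and 10.98 with the control siRNA. Those groups overlapped, with a change of -0.07 ± 0.14 SE (adjusted p = 0.967) and a 95% interval of -0.37 to 0.23. *FKBP5*, a co-chaperone of steroid receptors, had 11.74, 11.60 and 11.65 with the ERRγ siRNA against 11.75, 11.90 and 11.90 with the control siRNA. Its groups did not overlap, though the lowest control siRNA array was close to the highest ERRγ siRNA array, and the change was -0.19 ± 0.09 SE (adjusted p = 0.844). The kinase gene *SGK1* had 7.06, 7.02 and 7.02 against 6.68, 6.90 and 6.83, a change of 0.23 ± 0.09 SE, and the protease gene *ADAMTS1* a change of 0.23 with overlapping groups. *TARP*, a transcript of the T cell receptor gamma locus made in prostate cells, was at -0.24, also with overlapping groups.

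Among 29 tested androgen-repressed genes the median was -0.06, and 1 was higher and 3 lower at an unadjusted p under 0.05 (13.8% in both directions, against 6.12% of all genes). *BCHE*, the cholinesterase of plasma, had log2 signals of 6.49, 6.82 and 6.55 with the ERRγ siRNA and 7.02, 7.02 and 6.93 with the control siRNA. *LRRN1*, a leucine-rich repeat membrane protein, had 4.70, 4.79 and 4.603 against 5.48, 5.09 and 4.90. Both lay lower on every ERRγ siRNA array, by log2 changes of -0.37 ± 0.10 and -0.46 ± 0.13 SE, with adjusted p of 0.67. In vehicle they were at -0.003 and 0.20. The third, named after its values were seen, was *DDIT4*, an inhibitor of mTOR signalling induced by stress, at -0.23 (adjusted p = 0.729), and the 1 higher member was *SI*, sucrase-isomaltase, at 0.27.

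Among 23 tested genes of the hypoxia response, which *DDIT4* also belongs to, the median was -0.07, with 7 positive and 0 higher and 3 lower at an unadjusted p under 0.05 (13%, against 6.12% of all genes). *STC2*, the secreted hormone stanniocalcin 2, had 6.72, 6.92 and 6.95 with the ERRγ siRNA and 7.29, 7.22 and 7.10 with the control siRNA, a change of -0.34 ± 0.09 SE (adjusted p = 0.664). *MXI1*, an antagonist of MYC, had 5.24, 5.13 and 5.03 against 5.598, 5.41 and 5.59, a change of -0.40 ± 0.12 SE (adjusted p = 0.699). Both were lower on every ERRγ siRNA array and did not pass. Glycolysis and glucose transport had 8 of 26 positive and a median of -0.07. In it *TPI1*, triosephosphate isomerase, was at -0.24 and *PFKFB2*, which sets the level of a glycolytic activator, at 0.29, each with overlapping groups.

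Genes of growth gave no call either. DNA replication had 14 of 43 members positive and a median of -0.02. *TYMS*, thymidylate synthase, had 9.25, 9.41 and 9.07 with the ERRγ siRNA against 9.52, 9.53 and 9.43 with the control siRNA, a change of -0.25 ± 0.11 SE (adjusted p = 0.799). *POLD3*, a subunit of DNA polymerase delta, was at -0.26. The mitosis list had 46 members tested, a median of -0.01 and 0 members with an unadjusted p under 0.05. *CDKN1C*, a CDK inhibitor, was at -0.34 with overlapping groups, and was the 1 of 18 cell cycle inhibitors and D cyclins with p under 0.05.

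Lipid and amino acid metabolism held single members with low unadjusted p. *CYP51A1*, a demethylase of cholesterol synthesis, had 6.80, 6.67 and 6.61 with the ERRγ siRNA and 6.43, 6.36 and 6.14 with the control siRNA, a change of 0.38 ± 0.13 SE (adjusted p = 0.729). It was the 1 of 25 members of its list at p under 0.05, and the list's median was -0.03. *GLUL*, glutamine synthetase, had 5.71, 5.35 and 5.22 with the ERRγ siRNA against 5.78, 5.90 and 5.70 with the control siRNA, overlapping groups with a change of -0.37 ± 0.12 SE (adjusted p = 0.729). *SLC7A11*, the cystine transporter of oxidative stress defence, had 5.10, 5.38 and 5.37 against 4.82, 5.07 and 4.81, a change of 0.38 ± 0.11 SE (adjusted p = 0.685). *FASN*, fatty acid synthase, was at -0.15 with overlapping groups, and fatty acid synthesis and elongation had 0 of 23 members at p under 0.05.

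Stress, interferon and siRNA pathway genes were also without a call. The interferon response had 32 members tested and a median of -0.04. At an unadjusted p under 0.05, 0 were higher and 3 lower (9.38%, against 6.12% of all genes, with 3.19% lower). These were *SP100*, a nuclear body protein detected on 0 of 3 ERRγ siRNA arrays (mean at least 1.13-fold lower there, adjusted p = 0.705), *IRF7*, a transcription factor of interferon genes (-0.22) and, named after its values were seen, *OAS1*, a sensor of double-stranded RNA (-0.32). The genes of the siRNA pathway itself had 0 of 14 at that p and a median of 0.03. The unfolded protein response had a median of -0.04 with 1 of 28 at that p, *CRELD2*, a protein of the endoplasmic reticulum (-0.20). The p53 targets had 0 of 22 and a median of -0.01. Nuclear receptors had 0 of 23, with *RXRA*, the partner of many nuclear receptors, at 0.32 in R1881 and -0.53 in vehicle (adjusted p = 0.828 in R1881). Ribosomal protein genes had 42 of 65 positive and a median of 0.04, while *RPL13* (-0.23) and *RPL37* (-0.29) were the members at p under 0.05.

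The marker lists held the luminal gene *MSMB*, a secreted protein of the prostate, with 5.65, 5.61 and 5.42 with the ERRγ siRNA against 5.17, 4.98 and 5.42 with the control siRNA, a change of 0.37 ± 0.11 SE. The stromal marker *ACTA2*, smooth muscle actin, had 8.96, 8.80 and 9.21 against 8.60, 8.50 and 8.63, a change of 0.41 ± 0.11 SE (adjusted p = 0.664). Each was the 1 member of its list with an unadjusted p under 0.05, and most other members had negative changes. Of the luminal markers 7 of 18 were positive and of the stromal markers 3 of 7, with a median log2 change of -0.02 in both lists. The summed linear signal of the 7 stromal markers tested was 1208 to 1347 with the ERRγ siRNA and 1133 to 1215 with the control siRNA, while *COL1A2*, *DCN*, *LUM*, *PDGFRA* and *PDGFRB* were not detected on enough arrays to be tested. The basal markers tested, 3 of 12, summed to 246.4 to 269.5 with the ERRγ siRNA and 212.2 to 251.9 with the control siRNA. The 4 neuroendocrine and 6 immune markers tested had sums of 348.4 to 358.4 and 300 to 326.1 with the ERRγ siRNA, against 354 to 369.8 and 287.9 to 320.4 with the control siRNA. Over the 31 lists, 724 different genes were tested, of which 35 (4.83%) had an unadjusted p under 0.05, 17 higher and 18 lower, against 6.12% of all genes.

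Without androgen the same siRNA comparison gave 45 called genes (0.263%; limma, adjusted p under 0.05), of which 42 (0.245%) were lower and 3 (0.0175%) higher with the ERRγ siRNA. At an unadjusted p under 0.05 there were 2658 genes in vehicle (15.5%), of which 1193 (6.97%) were higher and 1465 (8.56%) lower. The count of 45 depended on single arrays: it was 192 without replicate 1 and 123 without replicate 2 of the control siRNA in R1881, which share in the estimate of the spread, and 83 without replicate 2 of the ERRγ siRNA in vehicle. It was 28 without replicate 3 of the control siRNA in R1881, and 1 to 5 without any 1 of the other vehicle arrays. None of the 45 was called in R1881. The median log2 change of the 42 was 0.03 in R1881, against -0.76 in vehicle, where they were chosen. In R1881 18 of the 42 had a negative change, and 3 of these and 1 of the positive ones had an unadjusted p under 0.05, beside 6.12% of all genes. Their mean log2 signal was 7.16, 7.004 and 7.17 on the ERRγ siRNA arrays in R1881 and 7.36, 6.97 and 7.03 on the control siRNA arrays in R1881. In vehicle it was 6.86, 6.96 and 6.88 with the ERRγ siRNA and 7.75, 7.77 and 7.82 with the control siRNA. The vehicle levels follow from how the 42 genes were chosen. Replicate 1 of the control siRNA in R1881 was the highest of the 6 R1881 arrays.

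*SNORD13*, a small nucleolar RNA, had the lowest log2 change in vehicle among the called genes with a symbol, -1.79 ± 0.18 SE (adjusted p = 0.00165). In R1881 it had 4.35, 4.52 and 4.85 with the ERRγ siRNA against 5.07, 4.32 and 4.36 with the control siRNA, overlapping groups with a change of -0.01 ± 0.18 SE, and was detected on 1 array of each. *MT1G*, a metal-binding metallothionein, changed by -1.35 in vehicle (adjusted p = 0.0293). In R1881 it had 8.77, 8.41 and 8.68 with the ERRγ siRNA against 8.97, 8.03 and 8.47 with the control siRNA, a change of 0.13 ± 0.22 SE. *BCYRN1*, a short cytoplasmic RNA, changed by -1.30 in vehicle (adjusted p = 0.0223). In R1881 it had 8.41, 7.99 and 8.21 with the ERRγ siRNA against 9.23, 8.27 and 8.35 with the control siRNA, a change of -0.41 ± 0.20 SE (adjusted p = 0.824). In all 3 genes replicate 1 of the control siRNA was the highest of the R1881 arrays.

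*TDP1*, which frees topoisomerase from DNA, changed by -1.18 in vehicle and was at -0.11 ± 0.17 SE in R1881. *NPM3*, a histone chaperone of the nucleolus, changed by -1.06 in vehicle (adjusted p = 0.0498) and was at 0.04 ± 0.20 SE in R1881. *TRK1*, named as on the array, changed by -1.16 in vehicle and was at -0.01 in R1881. The named genes that rose in vehicle were *TMEM64*, a membrane protein, by 0.53 on the log2 scale (adjusted p = 0.0299) and *GOLGA7B*, a partner of palmitoyl transferases, at least 1.26-fold by its means (adjusted p = 0.0366), a bound since it was detected on 0 of 3 control siRNA arrays in vehicle. In R1881 these were at -0.05 and 0.04. Across all genes the log2 changes in R1881 and in vehicle had a Pearson correlation of -0.05. The pairs share no array, and genes are not independent of each other. Of the genes with an unadjusted p under 0.05 in both, 91 had the same sign and 77 opposite signs. Over all 17123 genes, 6.12% had such a p in R1881 and 15.5% in vehicle, so some genes meet both without a shared effect.

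**Figure D5:**
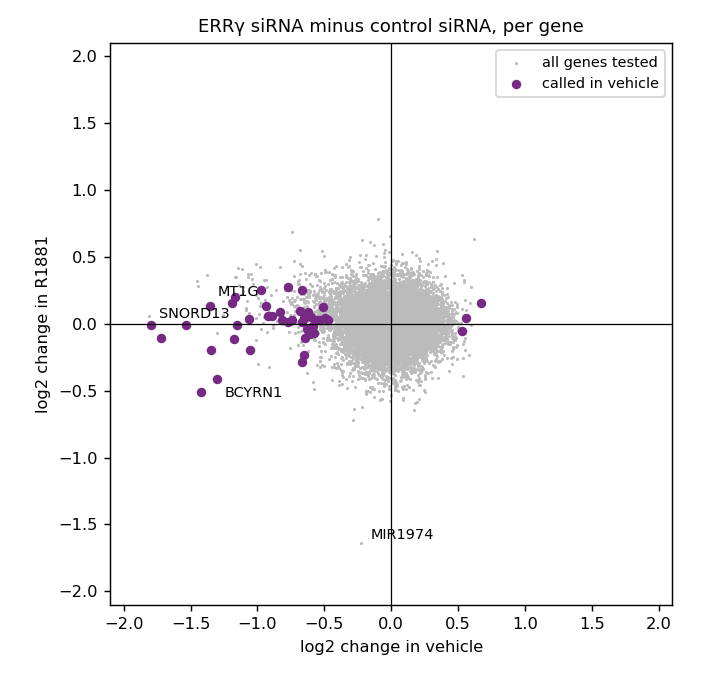
Log2 change of each gene with the ERRγ siRNA in R1881 (vertical axis) against its change in vehicle (horizontal axis), with 17123 genes in grey and the 45 genes called in vehicle in purple. The called genes reach -1.79 in vehicle but lie between -0.51 and 0.27 in R1881.

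The difference between the siRNA effects in R1881 and in vehicle was tested in its own right, since a call in vehicle and none in R1881 does not show that the effects differ. Of 17123 genes 0 (0%) passed an adjusted p under 0.05 (limma), and 1891 (11%) had an unadjusted p under 0.05, with 1096 (6.4%) positive and 795 (4.64%) negative. The lowest adjusted p was 0.0962, for *SNORD13*, at a difference of 1.78 ± 0.25 SE (R1881 minus vehicle). The count depended on single arrays and on the background correction. It was 175 without replicate 1 of the control siRNA in R1881, of which 164 were positive, 50 with a larger offset, 14 with no background correction and at most 2 under the other alternatives. Among the genes next in order were *PLA2G2D*, at a difference of 0.90 ± 0.14 SE, and *C21orf58*, at 1.05 ± 0.16 SE, each with an adjusted p of 0.118. *C21orf58* had log2 signals of 8.94, 8.76 and 9.15 with the ERRγ siRNA and 8.80, 8.65 and 8.59 with the control siRNA in R1881. In vehicle it had 8.99, 8.87 and 8.71 with the ERRγ siRNA and 9.48, 9.71 and 9.70 with the control siRNA. The vehicle groups were far apart, and the R1881 groups overlapped.

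The 7 others by the same rule had an adjusted p of 0.21. Among them was *NPW*, undetected with the control siRNA in R1881. The copine gene *CPNE7* had a difference of 0.77, while *SMCR5* was at 0.78, *RNU4ATAC*, a spliceosomal small nuclear RNA, at 0.92 and *LUZP6* at 1.06. *SERPINI1*, neuroserpin, was at -0.93, and *MGC45491* was not detected on any array of 2 of the 4 groups. *SERPINI1* had 4.85, 4.70 and 4.76 with the ERRγ siRNA and 4.89, 5.25 and 5.34 with the control siRNA in R1881, and 7.80, 7.57 and 7.70 with the ERRγ siRNA and 7.41, 6.96 and 7.09 with the control siRNA in vehicle. It was thus lower with the ERRγ siRNA on all R1881 arrays and higher on all vehicle arrays, at changes of -0.39 and 0.54.

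To set the values beside the letters an ERR is known to bind, the ERR response element TCAAGGTCA was searched on both strands in the 250 bases before the start of each gene (RefSeq promoters, GRCh38.p14). It was found in 112 of 35116 promoters (0.319%). Of the genes tested on the arrays, 9943 matched a promoter by current symbol, and 26 tested genes (older names included) had the element. Of these 26, 0 were called, 17 had a positive and 9 a negative change, the median was 0.04 and the range -0.39 to 0.18. No promoter of the 64 ERR target list members with an entry held these letters. The search took 1 exact spelling in 250 bases, which 0.319% of all promoters held. Its absence from the 64 therefore does not show that they lack ERR sites. Of 20 leading genes 1 held the letters, *BTBD11*, now named *ABTB3*. The windows below show that gene and the 3 with the brightest signal, *ACP3*, which encodes prostatic acid phosphatase, *AK3*, a mitochondrial adenylate kinase, and *CKMT1A*, a mitochondrial creatine kinase with a near-identical copy, *CKMT1B*. They read 5′ to 3′ on the strand of the gene, and capitals mark the element or its reverse complement, TGACCTTGA.
ABTB3: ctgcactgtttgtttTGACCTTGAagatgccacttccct
ACP3: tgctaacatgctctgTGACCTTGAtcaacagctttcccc
AK3: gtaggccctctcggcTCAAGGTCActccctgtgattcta
CKMT1A: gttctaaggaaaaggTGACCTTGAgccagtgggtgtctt

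These windows lie at chr12:107320422-107320460 on the plus strand (*ABTB3*), chr3:132317185-132317223 on the plus strand (*ACP3*), chr9:4741933-4741971 on the minus strand (*AK3*) and chr15:43693341-43693379 on the plus strand (*CKMT1A*), and are promoter sequence upstream of the annotated start. *BTBD11* had log2 signals of 4.31, 4.39 and 4.29 with the ERRγ siRNA and 4.62, 4.86 and 4.69 with the control siRNA, all near the background. *ACP3* had 9.45, 9.58 and 9.49 with the ERRγ siRNA against 9.53, 9.95 and 9.67 with the control siRNA, overlapping groups with a change of -0.21 ± 0.11 SE (adjusted p = 0.844). *AK3* was at -0.04 ± 0.08 SE and *CKMT1A* at 0.12 ± 0.09 SE. A match of these letters is a description of the sequence and does not show that ERRγ binds there.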

How the data were processed

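RNA of LNCaP cells was profiled on 12 bead arrays, 3 in each of 4 groups, and the samples were grouped by their titles. The authors deposited a raw signal for each of 47323 probes, an intensity on a linear scale per the file headers, with a detection p-value beside it, and a second table of normalized values, which their range shows to be log2. Neither how the authors normalized it nor the genome build of the probes is given in the sources used here.

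The function nec of limma 3.58.1 (in R 4.3.3) corrected the raw signals for background, estimated through the detection p-values, and added 16. Quantile normalization and log2 followed. The 92 spike-in probes were left out. Probes with a detection p under 0.05 on at least 3 of 12 arrays were kept (21959), and each gene took its probe with the highest mean signal, giving 17123 genes (3781 with more than 1 kept probe). Names came from the RefSeq accession beside the probe (28588 probes), its symbol where current (2477) or its name as given (16258). Of the genes 13054 had a symbol and could be named.

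One linear model over all 12 arrays (lmFit and eBayes) gave the ERRγ siRNA effect in R1881, in vehicle, and the difference of these. Tests were two-sided with Benjamini-Hochberg adjustment over all genes, and calls were made at an adjusted p under 0.05. For a gene not detected on any array of 1 group, the fold is a bound against the lowest detected signal of each array. The fit was tested on simulated data. The number of arrays limits the precision. Alternatives were an offset of 50, no background correction, cyclic loess, the authors' table, no or another filter, the mean of a gene's probes, fits of 6 arrays, a trended prior, the replicate number as a block, array weights, and each of the 12 arrays left out in turn.

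Genes were reported by rule: 12 in each direction in R1881, filled by lowest unadjusted p among non-overlapping groups where calls were lacking, up to 2 members of each list in each direction, the ERR and PGC-1 genes with *KLK3* and *FKBP5*, up to 6 called genes in each direction in vehicle, and 10 genes for the difference. The comparison and the 31 gene lists were chosen with earlier results of these data known. List members not described stand in the counts alone.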

Additional observations from a re-analysis of the deposited data

How the results depend on the processing

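The count of 0 called genes in R1881 held under all 23 alternatives, and the count at an unadjusted p under 0.05 was 898 to 1366 over the arrays left out in turn and 2012 with no filter on dim probes, where more genes are tested, against 1048. The 45 calls in vehicle became 441 with an offset of 50, 482 with no background correction, 179 in the authors' table, 26 with no filter, 125 with only the 6 arrays compared, 399 with a trended prior and 236 with array weights, and 1 to 192 with an array left out. The highest of these was without replicate 1 of the control siRNA in R1881, and the count was 123 without its replicate 2, 28 without its replicate 3 and 83 without replicate 2 of the ERRγ siRNA in vehicle, which also gave 1 call for the difference. The lowest counts, 1 to 5, came without replicate 1, 2 or 3 of the control siRNA in vehicle, or replicate 1 or 3 of the ERRγ siRNA in vehicle. The 0 calls for the difference became 50 with an offset of 50, 14 with no background correction, 1 in the authors' table, 2 with a trended prior, 1 with array weights and 0 to 175 with an array left out, the 175 without replicate 1 of the control siRNA in R1881. Its count at an unadjusted p under 0.05 was 2884 with no filter, against 1891. The cause of these moves was not tested. The 24 leading genes kept their sign in all 552 values, with none called, but 72 of the values moved, all of them to smaller changes with another background correction, in the authors' table or as the mean of a gene's probes, while medians of 19 of 31 lists changed sign in at least 1 alternative (52 of 713 values). Same-numbered arrays of the 2 siRNAs in R1881 had deviations that correlated at 0.09, 0.13 and 0.02. Whether same-numbered arrays were prepared together was not tested, and these values cannot show it. With the replicate number as a block the counts were 0 in R1881, 6 in vehicle and 0 for the difference. On every array fewer probes were detected than not, which limits what can be seen of dim genes such as *ESRRG*.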

Other observations

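The 3 control siRNA arrays in R1881 were spread more widely than the ERRγ siRNA arrays in R1881 for a set of genes chosen here after their values were seen, several of them small RNAs. A range of over 1 log2 unit between the 3 arrays was found in 28 genes with the ERRγ siRNA in R1881 and in 145 with the control siRNA in R1881, while in vehicle it was found in 36 and 18. *SNORD104*, a small nucleolar RNA, had log2 signals of 7.70, 7.26 and 7.32 with the ERRγ siRNA and 8.31, 6.45 and 6.68 with the control siRNA in R1881. *SNHG9*, a small nucleolar RNA host gene, had 10.07, 9.48 and 9.54 with the ERRγ siRNA against 10.70, 8.99 and 9.24 with the control siRNA. In both genes the ERRγ siRNA arrays lay between replicates 1 and 2 of the control siRNA.

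Protein-coding genes were also among the 15 widest, and 3 of them are given as examples. *NDUFA3*, a subunit of complex I, had 11.38, 10.95 and 11.14 with the ERRγ siRNA and 11.60, 10.19 and 10.64 with the control siRNA. *ROMO1*, a small protein of the mitochondrial inner membrane, had 11.99, 11.73 and 11.83 against 12.33, 10.98 and 11.43. *DPM3*, a subunit of dolichol-phosphate mannose synthase, had 10.38, 10.04 and 10.17 against 10.58, 9.27 and 9.63. Replicate 1 of the control siRNA was the highest and replicate 2 the lowest of the 6 R1881 arrays in these 3 genes, whose adjusted p for the siRNA effect lay between 0.905 and 0.93.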
